A study of Mus musculus with 10 samples.

Results

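The genes described here are 10 imprinted growth genes and long non-coding RNAs (lncRNAs) of the mouse, chosen by name from the 39179 gene identifiers in the deposited count tables. The rule itself uses no measured value, but the genes were proposed with earlier results of these data known. They are H19, Igf2, Meg3, Rian, Mirg, Peg3, Cdkn1c, Grb10, Plagl1 and Mest. Imprinted genes are transcribed from a single parental copy, and which copy is active is set in the germ line by DNA methylation at an imprinting control region. At the H19-Igf2 locus the maternal copy makes the lncRNA H19 and the paternal copy makes the fetal growth factor Igf2, and both genes draw on shared enhancers. At the Dlk1-Dio3 locus the maternal copy makes a row of lncRNAs in the same direction, Meg3, Rian and Mirg, which carry many microRNAs and small nucleolar RNAs, while the paternal copy makes Dlk1, Rtl1 and Dio3. Most imprinted growth genes are highest before birth and fall in adult tissues, and skeletal muscle is among the tissues that go on making H19.

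RNA was sequenced from the tibialis anterior (TA), a muscle of the shin made mostly of fast fibers, in 10 mice. The 6 LLC mice carried tumors of Lewis Lung Carcinoma, a mouse lung cancer cell line that causes muscle wasting (cachexia), injected under the skin of each flank. The 4 Control mice received the same volume of buffer (PBS), 100 µl per flank, and had no tumor (0 days of tumor development). The sample labels give C57BL/6J mice, 10 weeks old at injection, and 23 days of tumor development, whereas the text of the series gives C57BL/10 male mice, 8 weeks and 22 days. Both groups belonged to the same strain and no gene was altered in either. Each library came from 1 mouse. The authors state that the sequenced samples were selected at random, and that the 6 LLC mice among them had survived to the end of the experiment.

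Of the maternal lncRNAs of the Dlk1-Dio3 locus, Meg3 and Rian were down-regulated in LLC muscle, and Mirg had too few counts to be tested. Neither gene of the H19-Igf2 locus passed the test. Meg3 fell 3.03-fold and Rian fell 3.38-fold. H19, the most abundant member, did not pass (log2 fold change 0.16 ± 0.13, SE), and neither did Igf2 (-0.26 ± 0.12). A gene passed with a Benjamini-Hochberg adjusted p of at most 0.05 in edgeR's quasi-likelihood test and a change of at least 1.5-fold. Of the 10 members, 9 had enough counts to be tested, 0 passed as higher and 2 passed as lower in LLC. Among all 12690 genes tested, 5.63% passed in either direction, 1.65% as higher and 3.99% as lower, and the median log2 fold change was 0.0019. The median over the 9 tested members was -0.54.

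Sequences are shown first for the microRNAs carried by these lncRNAs, because they set out what each locus encodes. All were taken from RefSeq on GRCm38.p6, 5′ to 3′, with the seed (bases 2 to 8) in capitals. Within the exons of H19 lies Mir675, on chromosome 7 and the minus strand, with both arms shown here.
mmu-miR-675-5p: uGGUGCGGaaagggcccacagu
mmu-miR-675-3p: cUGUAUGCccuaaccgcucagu

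Meg3 holds Mir770 and Mir1906-1 in its exons on the plus strand of chromosome 12, with 3 mature sequences.
mmu-miR-770-5p: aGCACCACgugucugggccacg
mmu-miR-770-3p: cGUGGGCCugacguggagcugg
mmu-miR-1906: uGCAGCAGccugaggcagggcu

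Introns of Rian hold 3 microRNA genes with 6 mature sequences, of which the 5p and 3p arms of Mir370 and Mir341 are given.
mmu-miR-370-5p: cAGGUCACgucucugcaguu
mmu-miR-370-3p: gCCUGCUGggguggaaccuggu
mmu-miR-341-5p: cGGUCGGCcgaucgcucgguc
mmu-miR-341-3p: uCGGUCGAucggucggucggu

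Mirg holds 14 microRNA genes with 26 mature sequences and 25 different seeds. The 2 that share a seed are shown for comparison.
mmu-miR-453: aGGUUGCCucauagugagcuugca
mmu-miR-496a-5p: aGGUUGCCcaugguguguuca

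No seed was shared between the microRNAs of H19 and those of Meg3 printed above. Igf2 carries Mir483 and Mest carries Mir335, each in an intron. The total RNA libraries gave almost no counts for the microRNA genes themselves. Between Dlk1 and Dio3, 59 microRNA genes were listed, and 6 of them had any count, 7 counts in all samples together. Of 23 small nucleolar RNA genes there, 2 had any count, with 2 counts in all. Several of these small genes share exonic bases with their host on the same strand. How reads on shared bases were assigned was not tested, so low counts there may partly reflect the counting. The levels below are therefore those of the long host transcripts, and the small RNA libraries of these mice were not used here.

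Total counts ran from 16693209 to 21303084 per library. On these raw totals 3 counts, the smallest level taken as detected, corresponded to 0.141 to 0.180 CPM (counts scaled to a common library total). This limit covers counting error only. The levels of genes below use scaled library sizes, on which the limit differs somewhat, with 1 count in LLC 1 at 0.0514 CPM. Mitochondrial genes took 28.4% to 30.7% of the counts in Control and 22.0% to 27.9% in LLC. LLC 1, the shallowest library, stood apart from the other LLC libraries in several members, and values without it are given where it changed a call. The defining genes of fast muscle fibers summed to 130089 to 139222 CPM in Control and 91642 to 143516 CPM in LLC, so the defining genes of the labelled tissue were present. In whole muscle, fewer cells of a type and less RNA per cell cannot be told apart.

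Meg3 (ENSMUSG00000021268, GRCm38 chromosome 12, 109541001 to 109571726, plus strand) is the first lncRNA of the maternal row and is known as a growth-suppressing RNA. Its level was 11.3, 12.7, 13.7 and 19.8 CPM in Control 1 to 4, from 214 to 362 counts. In LLC 1 to 6 it was 3.65, 6.72, 5.39, 5.49, 3.97 and 3.30 CPM, from 59 to 119 counts. All LLC values lay below all Control values, as they did in 9.57% of all genes tested (6.40% had all LLC values above), and Control 4 was the highest Control. The means were 14.4 ± 3.75 CPM (SD, n = 4) and 4.75 ± 1.32 CPM (SD, n = 6), with a log2 fold change of -1.60 ± 0.21 (SE, edgeR adjusted p = 0.00107). On the opposite strand the lncRNA gene Gm26906 shares 1228 exonic bases with Meg3 and was listed at 0 counts in every library.

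Rian (ENSMUSG00000097451, chromosome 12, 109603940 to 109661716, plus strand) is the next lncRNA downstream and hosts a cluster of small nucleolar RNAs. It measured 10.1, 12.2, 11.4 and 20.1 CPM in Control 1 to 4. In LLC 1 to 6 it measured 1.29, 5.82, 5.56, 5.09, 2.92 and 3.24 CPM. As with Meg3, the groups did not overlap and Control 4 stood highest, while LLC 1 was the lowest of all, at 25 counts. The means were 13.4 ± 4.52 CPM (SD, n = 4) and 3.99 ± 1.79 CPM (SD, n = 6), with a log2 fold change of -1.76 ± 0.34 (SE, edgeR adjusted p = 0.00939). Without LLC 1 the log2 fold change was -1.57 ± 0.24 and the gene still passed. Exons of 8 small nucleolar RNA genes lie within its exons on the same strand.

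Mirg (ENSMUSG00000097391, chromosome 12, 109729764 to 109749460, plus strand) is the distal lncRNA of the row and the host of the large microRNA cluster. It was close to the detection limit and failed the filter on low counts, so it had no test. It had 12, 9, 14 and 15 counts in Control 1 to 4 and 1, 6, 3, 8, 4 and 1 counts in LLC 1 to 6. The groups did not overlap here either. Summed over libraries the counts were 50 and 23, a Control level 3.22 times the LLC level with a 95% exact interval of 1.93 to 5.53 that covers counting error only. Of the paternal genes of the same locus, Dlk1 had at most 5 counts in any library, Rtl1 at most 5 and Dio3 at most 5, so none could be compared at this depth.

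**Figure D1:**
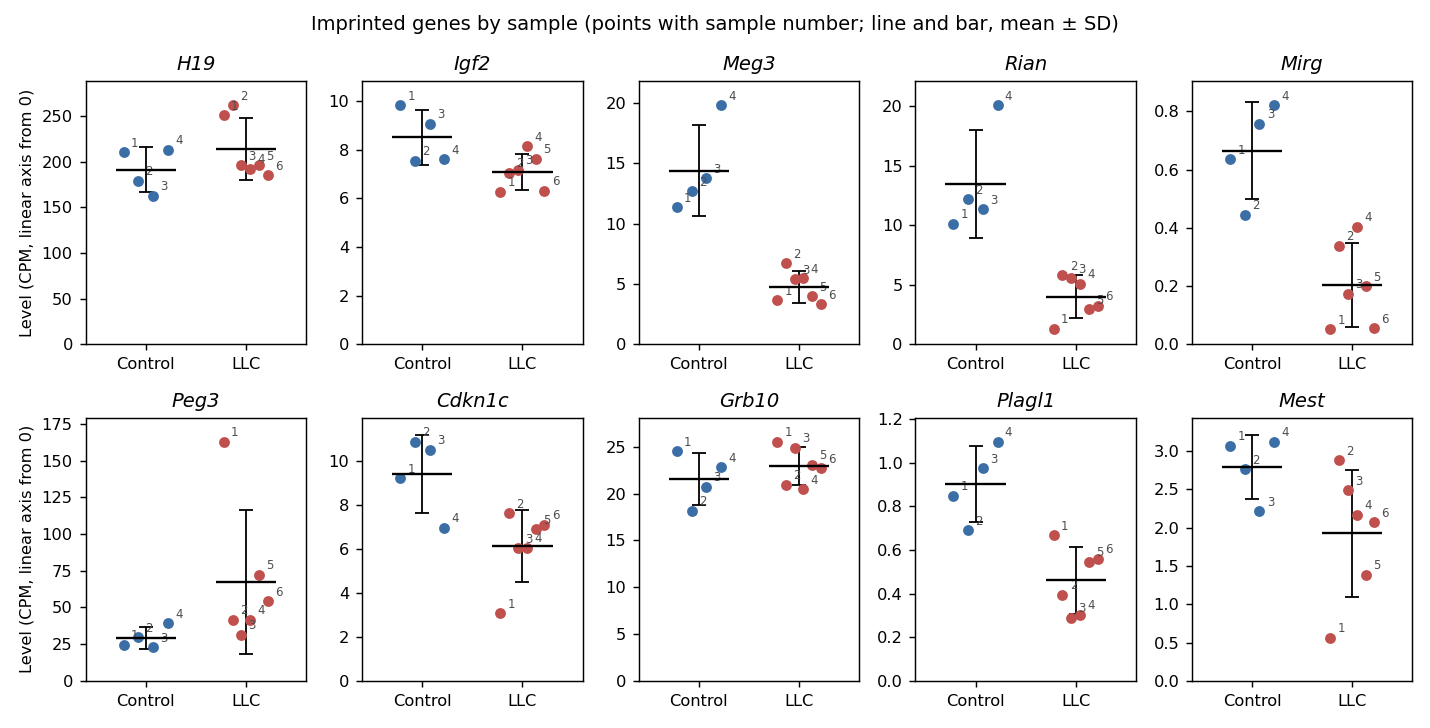
Level of each of the 10 imprinted genes in CPM (linear axis from 0, a separate scale per gene) in the 4 Control and 6 LLC samples. Points carry the sample number, and the line and bar give the mean ± SD. In Meg3, Rian, Mirg and Plagl1 every LLC sample lies below every Control sample, and LLC 1 stands far above the rest in Peg3 at 163 CPM.

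Meg3 and Rian moved together, and so their start regions are shown, each from 250 bases before to 50 after a RefSeq transcription start on GRCm38.p6. The first is that of Meg3, chr12:109540746-109541045 on the plus strand. Capitals mark the cAMP response element TGACGTCA, whose first base is at position -57 from the start, and the TATA motif TATAAA at position -25.
Meg3: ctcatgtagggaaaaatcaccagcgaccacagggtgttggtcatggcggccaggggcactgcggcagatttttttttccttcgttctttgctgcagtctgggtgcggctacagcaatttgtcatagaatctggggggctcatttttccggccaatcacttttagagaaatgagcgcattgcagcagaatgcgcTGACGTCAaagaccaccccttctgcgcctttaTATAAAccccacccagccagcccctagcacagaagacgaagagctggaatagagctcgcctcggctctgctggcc

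The second is that of Rian, chr12:109603695-109603994 on the plus strand, which held neither motif.
Rian: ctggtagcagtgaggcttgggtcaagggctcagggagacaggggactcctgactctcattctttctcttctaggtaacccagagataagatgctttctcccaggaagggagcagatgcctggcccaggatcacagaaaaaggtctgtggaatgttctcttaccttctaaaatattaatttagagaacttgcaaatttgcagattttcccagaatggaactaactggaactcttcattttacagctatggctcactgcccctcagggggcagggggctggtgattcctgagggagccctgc

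The motifs were searched on both strands in 32817 RefSeq windows of this length, and the 2 seen in Meg3 were chosen after its sequence had been read. TGACGTCA occurred in 1.79% of windows and TATAAA in 13.6%. Among the 8 members with an entry, TGACGTCA occurred only in the Meg3 window printed above and in the window of Peg3. A further RefSeq window of Meg3, chr12:109545148-109545447, held neither TGACGTCA nor TATAAA. The motifs TTCCNGGAA (STAT, in 1.15% of windows) and GTAAACA (FoxO, in 3.65%) occurred in no window of a member. These are matches of letters and not measured binding.

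H19 (ENSMUSG00000000031, chromosome 7, 142575529 to 142578143, minus strand) is the maternal lncRNA of its locus. It measured 210, 179, 163 and 213 CPM in Control 1 to 4 and 251, 262, 197, 192, 196 and 185 CPM in LLC 1 to 6. LLC 1 and LLC 2 were above all Control samples and the other 4 lay inside the Control range. The means, 192 ± 24.5 CPM (SD, n = 4) and 214 ± 33.6 CPM (SD, n = 6), did not pass the test (edgeR adjusted p = 0.433). Leaving out each sample in turn gave log2 fold changes of 0.09 to 0.21.

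Igf2 (ENSMUSG00000048583, chromosome 7, 142650766 to 142666816, minus strand) encodes insulin-like growth factor 2. Its level was 9.85, 7.56, 9.08 and 7.61 CPM in Control 1 to 4. In LLC 1 to 6 it was 6.27, 7.06, 7.18, 8.16, 7.63 and 6.32 CPM. Of the LLC samples, 4 were below all Control samples and 2 overlapped them. The means were 8.53 ± 1.13 CPM (SD, n = 4) and 7.10 ± 0.738 CPM (SD, n = 6). It did not pass (edgeR unadjusted p = 0.0474, adjusted p = 0.177). The annotation places a protein-coding read-through gene, Gm49394, over 3596 exonic bases of Igf2 on the same strand, and it is not among the genes counted here.

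Among the neighbors within 200 kb of H19 or Igf2, 0 of the 7 genes tested passed. Those with enough counts were the fast troponin genes Tnni2 and Tnnt3, the lysosomal protease gene Ctsd, Lsp1, Prr33, the mitochondrial ribosomal gene Mrpl23 and the muscle lncRNA Nctc1. Nctc1, the nearest of them to H19, measured 117 ± 6.73 CPM (SD, n = 4) in Control and 102 ± 18.8 CPM (SD, n = 6) in LLC. The log2 fold changes of the 7 ran from -0.23 ± 0.14 for Prr33 to 0.43 ± 0.24 for Ctsd.

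To compare the loci directly, the log2 ratio of genes was taken within each library. Library scaling enters such a ratio only through the prior count of 2, which weighs most where counts are low. Meg3 against H19 was -4.20, -3.81, -3.56 and -3.42 in Control 1 to 4 and ran from -6.06 in LLC 1 to -5.10 in LLC 4 in the LLC samples, with no overlap. The mean difference was -1.74, a 3.35-fold lower ratio with the tumor (two-sided exact permutation p = 0.00952, adjusted over 5 ratios p = 0.0159). This is the smallest p that 4 against 6 samples allow over 210 groupings. Rian against H19 was 3.96-fold lower and Meg3 against Igf2 was 2.52-fold lower, both with the same exact permutation p and all 6 LLC samples below all Control samples. These ratios reuse the same genes and levels given above, so they are not separate evidence of the fall in Meg3 and Rian.

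Within each locus the ratios did not pass. The log2 ratio of Rian to Meg3 was -0.12 ± 0.13 (SD, n = 4) in Control and -0.36 ± 0.55 in LLC (SD, n = 6; two-sided exact permutation p = 0.514). LLC 1 held the lowest value, -1.43. The log2 ratio of H19 to Igf2 was 4.47 ± 0.27 (SD, n = 4) in Control and 4.88 ± 0.30 (SD, n = 6) in LLC, higher in 3 of 6 LLC samples than in any Control (two-sided exact permutation p = 0.0667, adjusted p = 0.0833). The ratio of Mirg to Meg3 rests on few counts and was not tested. Its mean per library was -4.23 in Control and -4.07 in LLC on the log2 scale, values that the prior count of 2 pulls upward where Mirg has few counts. From summed counts with no prior count, 50 against 1087 in Control and 23 against 531 in LLC, it was -4.44 and -4.53, the opposite order.

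**Figure D2:**
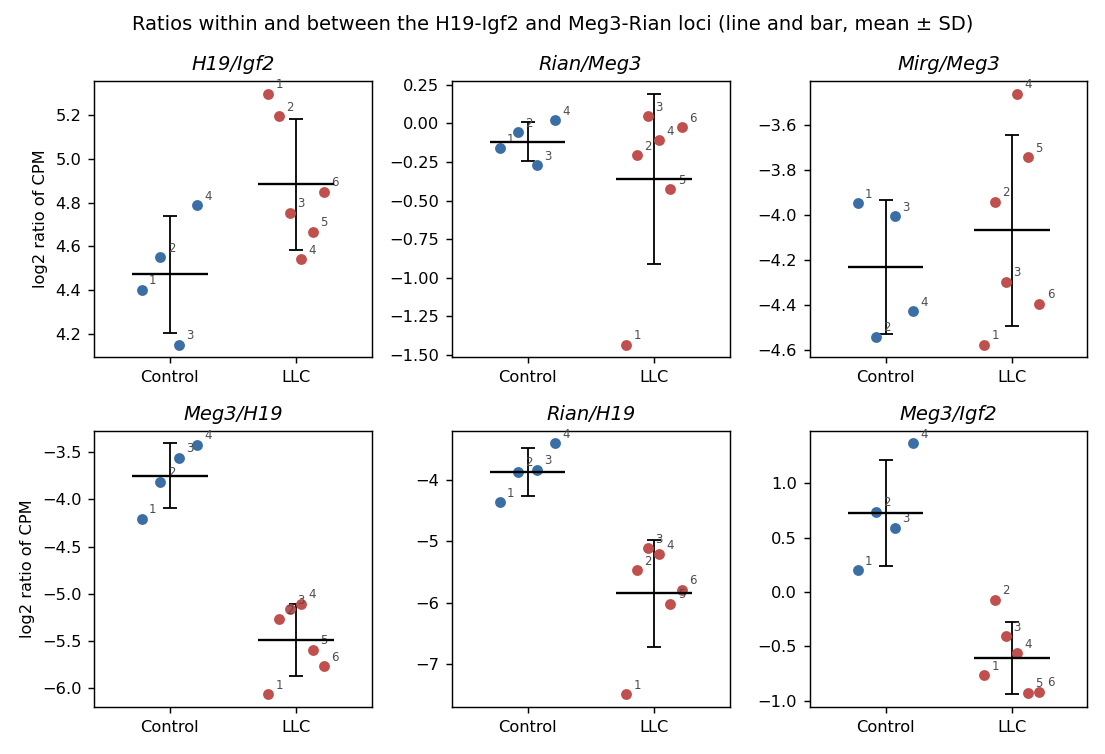
Log2 ratios of CPM between genes in each library, with points numbered by sample and line and bar for the mean ± SD of 4 Control and 6 LLC samples. The ratios between the loci (Meg3/H19, Rian/H19, Meg3/Igf2) are lower in every LLC sample than in every Control sample, whereas the ratios within a locus (H19/Igf2, Rian/Meg3, Mirg/Meg3) overlap.

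Peg3 (ENSMUSG00000002265, chromosome 7, 6703892 to 6730431, minus strand) encodes a paternally expressed zinc finger protein linked to cell death and TNF signaling. Its level was 24.6, 29.6, 23.1 and 39.4 CPM in Control 1 to 4. In LLC 1 to 6 it was 163, 41.7, 31.5, 41.6, 72.3 and 54.1 CPM. LLC 1 was far above the rest, and 5 of 6 LLC samples were above all Control samples. The means of 29.2 ± 7.35 CPM (SD, n = 4) and 67.4 ± 48.9 CPM (SD, n = 6) gave a log2 fold change of 1.21 ± 0.42 that did not pass (edgeR adjusted p = 0.103). Without LLC 1 the log2 fold change was 0.73 ± 0.22 and the gene passed.

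Cdkn1c (ENSMUSG00000037664, chromosome 7, 143458339 to 143461050, minus strand) encodes a cyclin-dependent kinase inhibitor that halts the cell cycle. It measured 9.22, 10.9, 10.5 and 6.96 CPM in Control 1 to 4 and 3.09, 7.62, 6.02, 6.05, 6.89 and 7.10 CPM in LLC 1 to 6. Control 4 lay within the LLC range and LLC 1 was the lowest. The log2 fold change of -0.62 ± 0.22 did not pass (edgeR adjusted p = 0.104). Without LLC 1 it was -0.47 ± 0.13, short of the 1.5-fold minimum.

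Plagl1 (ENSMUSG00000019817, chromosome 10, 13060504 to 13131694, plus strand) encodes a zinc finger transcription factor that restrains growth. It was rare, at 16, 14, 18 and 20 counts in Control 1 to 4 and 13, 7, 5, 6, 11 and 10 counts in LLC 1 to 6. All LLC levels were below all Control levels in CPM, with means of 0.902 ± 0.173 (SD, n = 4) and 0.460 ± 0.154 (SD, n = 6). It passed the filter on low counts through 4 Control but only 3 LLC samples. The log2 fold change of -0.95 ± 0.27 missed the threshold (edgeR adjusted p = 0.0529), and the gene passed without LLC 1, at -1.08 ± 0.27. Of the 9 tested members, 3 had all LLC values below all Control values (Meg3, Rian and Plagl1) and 0 had them all above, against 9.57% and 6.40% of all genes tested.

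Mest (ENSMUSG00000051855, chromosome 6, 30723547 to 30748465, plus strand) encodes an enzyme of the hydrolase fold made from the paternal copy. Its level was 3.07, 2.77, 2.22 and 3.12 CPM in Control 1 to 4 and 0.566, 2.88, 2.49, 2.17, 1.39 and 2.07 CPM in LLC 1 to 6. The groups overlapped, LLC 1 was the lowest, and the log2 fold change of -0.54 ± 0.32 did not pass (edgeR adjusted p = 0.278). On the opposite strand Copg2 shares 912 exonic bases with it. The effect of the strand setting on their counts was not tested.

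Grb10 (ENSMUSG00000020176, chromosome 11, 11930508 to 12038683, minus strand) encodes an adaptor that dampens signaling from the insulin and IGF receptors. It was the most even of the members, at 18.2 to 24.5 CPM in Control and 20.5 to 25.6 CPM in LLC with a median of 22.9 CPM. Its log2 fold change was 0.09 ± 0.11 (edgeR adjusted p = 0.593).

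**Figure D3:**
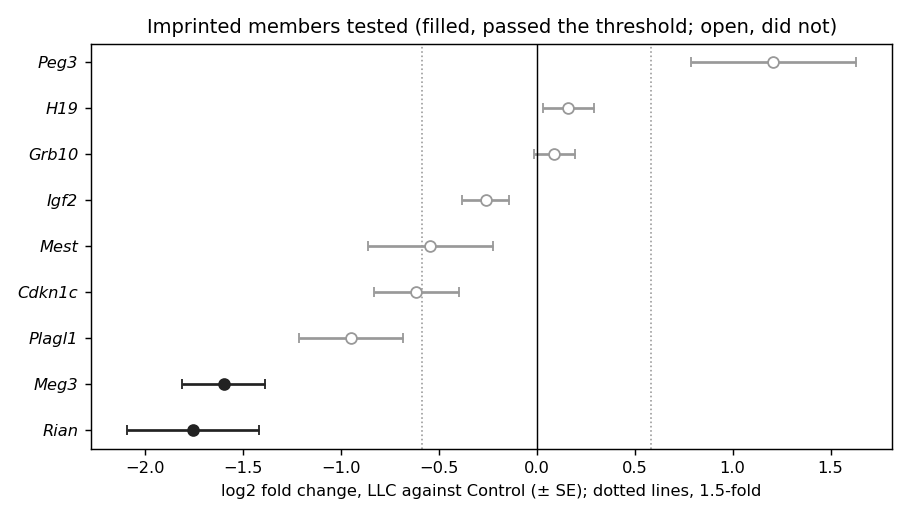
Log2 fold change of LLC against Control with its standard error for the 9 imprinted members tested. Filled points (Meg3 at -1.60 and Rian at -1.76) passed the threshold, open points did not, and the dotted lines mark 1.5-fold.

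Per kilobase of exon, H19 was the highest member in Control at 77.9 ± 9.96 CPM per kb (SD, n = 4). It was followed by Cdkn1c at 4.60 ± 0.865, Grb10 at 2.37 ± 0.302, Peg3 at 2.19 ± 0.552 and Igf2 at 1.49 ± 0.198 CPM per kb. Below 1 CPM per kb lay Meg3 at 0.796 ± 0.207, Rian at 0.737 ± 0.248, Mest at 0.708 ± 0.105, Plagl1 at 0.115 ± 0.0221 and Mirg at 0.0912 ± 0.0227. Neighbors whose Control ranges overlapped were Grb10 with Peg3, Meg3 with Rian, Rian with Mest, and Plagl1 with Mirg. In LLC the level of Peg3 was 5.05 ± 3.67 CPM per kb and that of Meg3 was 0.263 ± 0.0732 CPM per kb (SD, n = 6).

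Spread over the LLC samples differed among members. The coefficient of variation over the 6 LLC samples was 8.86% for Grb10, 10.4% for Igf2 and 15.7% for H19, against 44.9% for Rian, 43.1% for Mest and 72.5% for Peg3. LLC 1 was the lowest LLC sample for Igf2, Rian, Mirg, Cdkn1c and Mest and the highest for Peg3, Grb10 and Plagl1.

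Other imprinted genes, a list of 53 drawn from textbook knowledge, were mixed. Of these, 49 were matched in the tables, 29 were tested, 0 passed as higher, 2 passed as lower and 27 did not pass. Their log2 fold changes were above 0 in 14 and below 0 in 15, with a median of -0.05 against 0.0019 over all genes. Ndn, encoding the growth-suppressing protein necdin, measured 2.44, 3.01, 2.49 and 2.68 CPM in Control and 0.771 to 1.62 CPM in LLC (log2 fold change -1.17 ± 0.20, edgeR adjusted p = 0.00579). Nnat, encoding the membrane proteolipid neuronatin, measured 1.27, 1.43, 1.78 and 0.657 CPM in Control and 0.154 to 0.644 CPM in LLC (log2 fold change -1.55 ± 0.36, edgeR adjusted p = 0.0270). Both genes had no overlap between groups, and Control 4 was close to the LLC samples for Nnat. Of the 29 tested, 6 had all LLC values below all Control values and 2 had them all above, against 9.57% and 6.40% of all genes tested. Nnat passed the filter on low counts through 4 Control but only 3 LLC samples. It no longer passed the test without Control 1, Control 2 or Control 3, at log2 fold changes of -1.36 to -1.56. Without LLC 1, Zrsr1, a splicing factor gene named after its value was seen, passed as higher at a log2 fold change of 0.91.

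The most abundant of the list that did not pass were Nap1l4, a histone chaperone gene, the amino acid transporter gene Slc38a4, the receptor gene Igf2r, the tetraspanin gene Cd81 and the trafficking gene Trappc9. Slc38a4 measured 128 ± 7.92 CPM (SD, n = 4) in Control and 130 ± 25.8 CPM (SD, n = 6) in LLC. The log2 fold changes of the 5 ran from -0.29 ± 0.11 for Cd81 to 0.08 ± 0.08 for Trappc9.

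Genes of the IGF system, the receptors, binding proteins and partners through which Igf2 and Grb10 act, were likewise mixed. Of 20 listed, 14 were tested, 1 passed as higher, 1 passed as lower and 12 did not pass, with a median log2 fold change of 0.04. Igfbp6, which binds the Igf2 protein in preference to Igf1, measured 9.27, 8.25, 13.9 and 9.81 CPM in Control and 2.67 to 4.86 CPM in LLC (log2 fold change -1.51 ± 0.18, edgeR adjusted p = 0.000590). Igfbp7 measured 43.7, 36.0, 45.2 and 44.2 CPM in Control and 55.4 to 80.9 CPM in LLC (log2 fold change 0.62 ± 0.13, edgeR adjusted p = 0.0134). Neither gene overlapped between groups. Of the 14 tested, 3 had all LLC values below all Control values and 1 had them all above, against 9.57% and 6.40% of all genes tested. Igfbp7 no longer passed without Control 2 or without LLC 5, at a log2 fold change of 0.55 in each case.

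Of the abundant IGF system genes that did not pass, Igfbp5 measured 522 ± 37.2 CPM (SD, n = 4) in Control and 675 ± 341 CPM (SD, n = 6) in LLC. It was at 42.1 CPM in LLC 1, and the other 5 LLC samples were above all Control samples. Without LLC 1, Igfbp5 passed as higher, at a log2 fold change of 0.62. The insulin receptor gene Insr, its substrate gene Irs1, the adaptor gene Grb14 and Igf2r had log2 fold changes of 0.30 ± 0.19, -0.45 ± 0.27, -0.92 ± 0.40 and -0.06 ± 0.13. Grb14 and the growth factor gene Igf1, the latter named after its value was seen, also passed as lower without LLC 1, at -0.69 and -0.85.

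**Figure D4:**
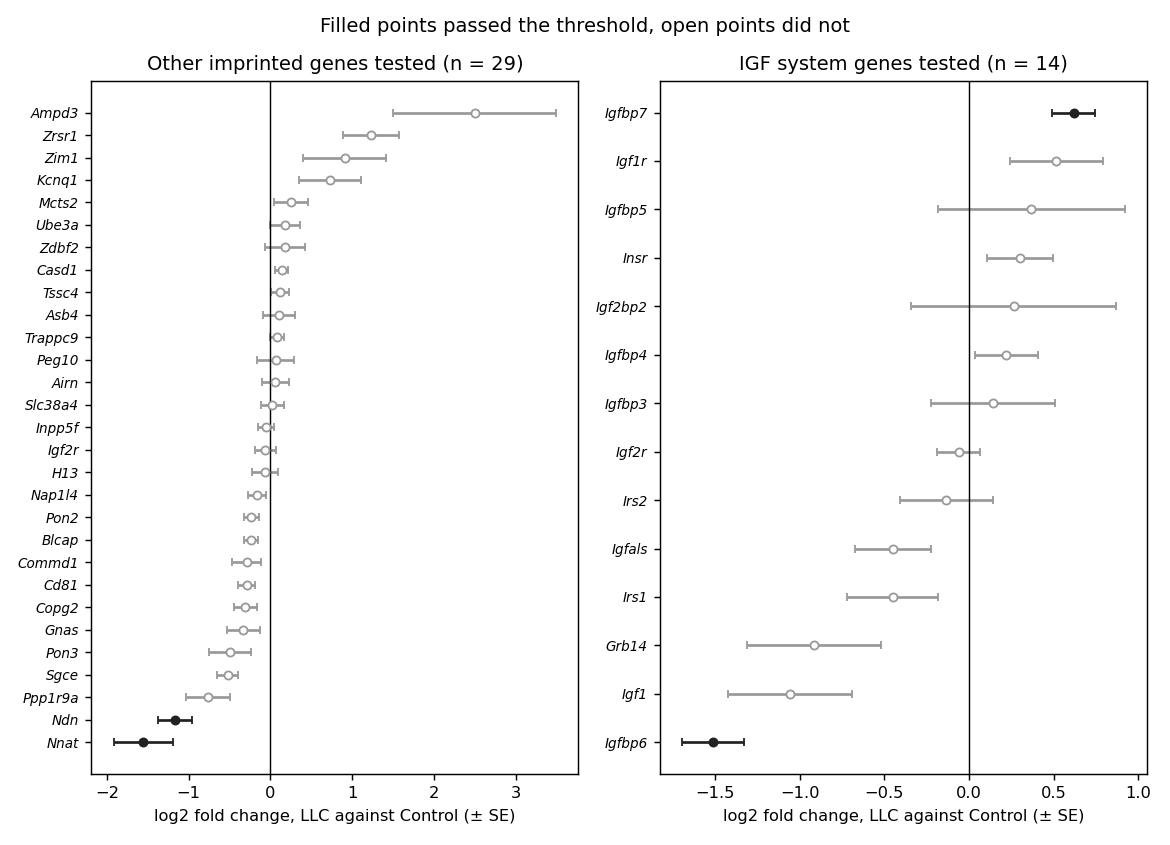
Log2 fold change of LLC against Control with its standard error for the 29 other imprinted genes tested (left) and the 14 IGF system genes tested (right). Filled points passed the threshold: Ndn and Nnat on the left, and Igfbp6 and Igfbp7 on the right.

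By profile over the 10 samples, the genes nearest to Meg3 were Fhl1, Podn and Mrc2. Likeness was the root mean square difference of log2 CPM after subtraction of each gene's Control mean, over 10376 genes, and it was 0.22, 0.22 and 0.25 for these 3. Fhl1 encodes a muscle LIM protein, Podn a proteoglycan of the extracellular matrix and Mrc2 a receptor that takes up collagen. Genes chosen by this measure have a fold change near that of the member by selection. Those of Fhl1, Podn and Mrc2 were -1.74 ± 0.23, -1.80 ± 0.20 and -1.70 ± 0.17 on the log2 scale. The genes nearest to Peg3 were Napb, Hmgb2 and Gclm, at 0.17, 0.19 and 0.23, and all were highest in LLC 1, as Peg3 was. Those nearest to H19 were Zbtb40, Brf1 and Plekho1, at 0.09, 0.10 and 0.12.

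Marker sums of fibroblasts and tenocytes were lower in LLC, as Meg3 and Rian were. Control 4 was the highest Control for Meg3 and Rian, at 138% and 150% of the Control mean. For the fibroblast sum Control 4 was at 104%, below Control 3 at 113% and above Control 1 at 90.0% and Control 2 at 92.9%. For the tenocyte sum Control 4 was the lowest Control, at 94.0%. The 9 markers of fibroblasts and fibro-adipogenic progenitors summed to 322 to 406 CPM in Control and 120 to 153 CPM in LLC. Of these, 8 passed as lower (Pdgfra, Dpt, Dcn, Lum, Col1a1, Col3a1, Mfap5 and Smoc2). Ly6a passed as higher, from a mean of 27.0 CPM in Control to 52.2 CPM in LLC, which raised the LLC sum. Tenocyte markers summed to 61.9 to 68.6 CPM in Control and 8.90 to 28.9 CPM in LLC. Of the 5 listed, 4 were tested and 3 passed as lower, of which Tnmd was above the low-count filter in Control samples only. In percent of the Control mean, the LLC samples had 22.9% to 46.7% of Meg3, 9.56% to 43.3% of Rian, 33.4% to 42.9% of the fibroblast sum and 13.5% to 43.9% of the tenocyte sum. For H19 they had 96.6% to 137%. The part of these cells in the levels of Meg3 and Rian was not tested.

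**Figure D5:**
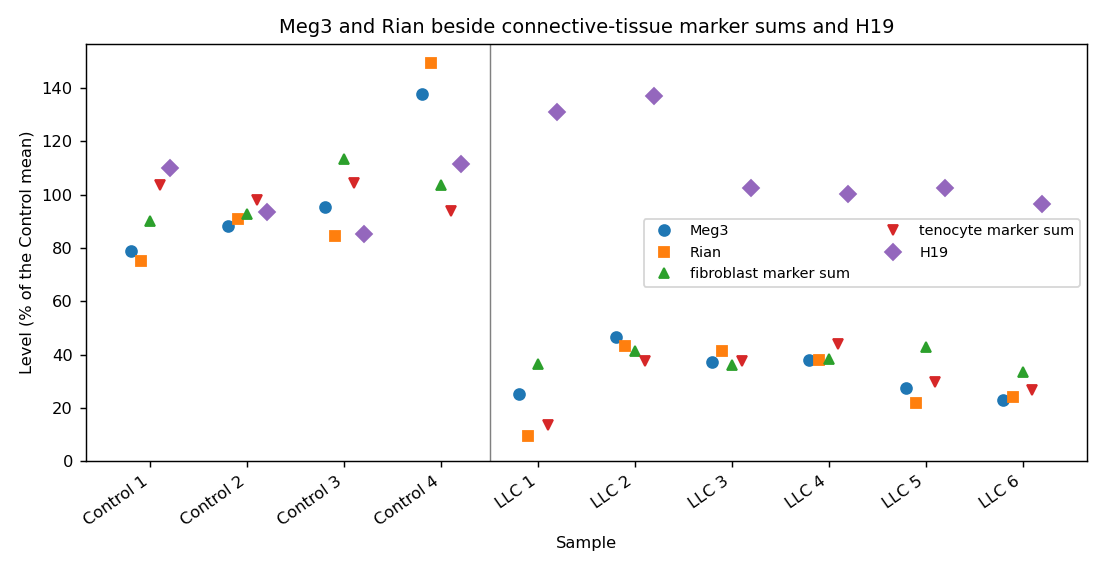
Levels of Meg3, Rian and H19 and the summed levels of fibroblast and tenocyte marker genes in each sample, in percent of the mean of the 4 Control samples (linear axis from 0). In the 6 LLC samples Meg3 lies at 22.9% to 46.7% and the fibroblast sum at 33.4% to 42.9%, while H19 lies at 96.6% to 137%.

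Markers of the remaining cell types were also summed, Control before LLC. Schwann cell markers summed to 22.6 to 25.5 and 10.1 to 15.8 CPM (2 of 5 passed as lower), and mural cell markers to 667 to 690 and 411 to 653 CPM (4 of 6 as lower). Satellite cell markers summed to 29.7 to 35.3 and 26.2 to 38.3 CPM (2 of 6 as lower, Pax7 and Myf5, the latter above the low-count filter in 4 of 6 LLC samples), endothelial markers to 301 to 365 and 276 to 323 CPM (1 of 6 as lower) and macrophage markers to 9.53 to 16.2 and 5.68 to 12.4 CPM (1 of 6 as lower). Neutrophil markers went the other way, from 0.424 to 2.17 CPM to 31.9 to 69.9 CPM (6 of 7 passed as higher, most of them above the low-count filter in LLC samples only), as did erythroid markers, from 58.8 to 83.4 CPM to 88.7 to 144 CPM (3 of 5 as higher). Markers of regenerating fibers summed to 43.3 to 54.6 and 46.8 to 67.8 CPM (1 of 6 as higher) and adipocyte markers to 1.04 to 7.19 and 1.64 to 3.50 CPM (0 of 4 passed). Of the 8 fast fiber markers, 0 passed. No marker was at 0 in all libraries, and the regeneration marker Mymk had at most 3 counts in any. The counts of markers passed are out of those listed, and some had too few counts to be tested. Tested were 4 of 5 Schwann cell, 5 of 6 satellite cell, 5 of 6 macrophage and 6 of 7 neutrophil markers. For regenerating fibers 4 of 6 were tested, and for adipocytes 2 of 4.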

How the data were processed

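Per the labels, total RNA of TA muscle was made into strand-specific paired-end libraries. The authors mapped reads to mm10 with TopHat2 and counted them with HTSeq at its default settings, whose strand mode keeps reads on the strand of the gene. The deposited values are raw read counts, 1 table per mouse, by Ensembl identifier although RefSeq genes are described. The annotation release is not given in the sources used here. First reads of this kind of library lie opposite to the gene, so whether the default strand mode made these tables is in doubt, which could change counts of overlapping genes. The high counts of fast fiber genes show that sense reads were counted. Coordinates came from GENCODE M21. Replicate pairs differed by a chi-square per degree of freedom of 3.93 to 197, so none was a duplicate.

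Genes were filtered with filterByExpr (count minimum 10), scaled by TMM and fitted together by edgeR 4.0.16 in R 4.3.3, with Benjamini-Hochberg adjusted p over all 12690. CPM uses the scaled library sizes. Ratios used log2 CPM (prior count 2). The ratio of Mirg to Meg3 was planned as a test, but Mirg failed the filter, so p was adjusted over 5 ratios. Scripts were tested on simulated data. Alternatives were other scalings and filters, DESeq2 1.42.0, limma 3.58.1 voom, a replicate block and leaving out each sample. Genes named are all members, genes past the threshold and the 5 most abundant others of each list, tested genes of both loci, and the 3 genes nearest in profile to Meg3, Peg3 and H19. Members, lists and markers were chosen with earlier results of these data known.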

Additional observations from a re-analysis of the deposited data

Results flagged for a closer look

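For 45 measures (the log2 CPM of the named genes and the log2 ratios), the 4 Control and the 6 LLC samples were each searched for a sample far from the rest. The measure was the distance of the most extreme sample from the sample next to it, as a share of the full range in that group. Of 90 groups 11 had such a sample, and 9 of the 11 were LLC 1. Chance gives about 1 in 20 (4.5) if the groups are independent. These groups share libraries and some genes, so no excess over chance can be read from the count. Among the members this was LLC 1 in Cdkn1c, at a share of 0.738, and LLC 1 in the ratio of Rian to Meg3, with 0.681. In the other imprinted genes it was LLC 1 in Nap1l4 (0.647) and in Cd81 (0.688). In the IGF system it was LLC 1 in Igfbp5 (0.822), Insr (0.725) and Grb14 (0.703), and Control 2 in Igfbp7 (0.851). Near H19 it was LLC 1 in Nctc1 (0.673) and in Prr33 (0.666), and Control 4 in Prr33 (0.898).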

How the results depend on the processing

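Meg3 stayed lower in LLC and past the threshold under all 20 alternatives, at log2 fold changes of -1.71 to -1.41. H19, Igf2, Cdkn1c, Grb10 and Mest kept their direction and did not pass under any of the 20. Rian stayed lower and passed under 18 of 20. Peg3 passed under DESeq2 (1.22), voom (0.60) and without LLC 1 (0.73), and Plagl1 under upper-quartile scaling (-0.99), voom (-1.17) and without LLC 1 (-1.08), so that 4 members passed under voom. Mirg, tested when no filter on low counts was used, had a log2 fold change of -1.65 ± 0.44 and passed (edgeR adjusted p = 0.0459), so that 3 members passed in that setting. With at least 10 counts in every sample, 475 genes passed, and 1 other imprinted gene. Of all genes, 715 passed with edgeR, 1052 with DESeq2 and 997 with voom.

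Leaving out each sample in turn gave 415 to 966 genes, 2 to 4 members, 1 to 3 other imprinted genes and 1 to 5 IGF system genes, the highest counts without LLC 1. Genes that had not passed changed sign near 0 when a sample was left out: Slc38a4 ran from -0.055 to 0.10, Igf2r from -0.11 to 0.018, Lsp1 from -0.15 to 0.074 and Tnnt3 from -0.064 to 0.0048. Upper-quartile scaling gave -0.010 for Slc38a4 and -0.038 for Lsp1, which was also at -0.0058 with at least 10 counts in every sample and -0.17 under voom. The causes were not tested.

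The replicate numbers of the labels did not pair the samples. Deviations from the group means correlated at -0.03, 0.01, -0.08 and 0.13, and 1 of 4 pairs correlated best with its own number. With the number as a replicate block, 107 genes, 1 member (Meg3), 0 other imprinted genes and 1 IGF system gene passed. The same 8 samples without the block, an alternative added after the data were seen, gave 299, 1, 1 and 1, and Rian did not pass in either (-1.69 and -1.60). The ratios of Meg3 to H19, Rian to H19 and Meg3 to Igf2 differed by -1.65, -1.96 and -1.18 over 4 pairs, where an exact sign-change test cannot go below p = 0.125. Igf2r was at 0.049 with the block and 0.048 without it in the 8 samples, and Igfbp5 at -0.11 with the block. Depth limited Mirg, Plagl1 and the paternal genes of the Dlk1-Dio3 locus, which had few counts.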
